A study of Homo sapiens with 8 samples.

Results

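The first hour of AF treatment without glucose was compared with regular culture of the same length in LN229-TAZ(4SA), an established human glioblastoma cell line whose name refers to a form of TAZ, the Hippo pathway co-activator encoded by WWTR1. The comparison takes 4 of the 8 libraries of the series, chosen by their column labels: 2 libraries of cells held for 1 h without glucose in the presence of 1 µM AF, and 2 libraries of cells held for 1 h in regular conditions without AF. Both groups carry the same line and were grown in DMEM with fetal bovine serum. The regular libraries at 7 h were compared only to mark genes whose level in regular culture at 1 h was itself passing. All 8 libraries entered the fit and shared 1 estimate of the spread, so the 7 h libraries also bear on the p-values at 1 h. Treated cells met AF and glucose withdrawal at the same time, so the effects of the 2 cannot be told apart, and the labels give AF by its abbreviation alone. The series title concerns inhibition of thioredoxin reductase 1 and disulfidptosis in glucose-starved glioblastoma cells. Whether each library had its own culture is not said in the labels, so the p-values reflect only how much the 8 libraries vary within their groups, and that variation may be technical. Where 2 values stand for a group, they are its libraries, in no order. In bulk RNA, fewer cells that express a gene and less RNA per cell cannot be told apart.

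Cells answer damage to proteins and thiols through a few transcription programmes that act within minutes to hours. Heat shock factor 1 drives chaperone genes when proteins unfold, NRF2 drives detoxification and iron genes when KEAP1 thiols are modified, and the integrated stress response raises ATF4 and its targets when eIF2α is phosphorylated. In growing tumour cells, serum and adhesion signals keep other short-lived transcripts high: immediate early genes, targets of YAP and TAZ bound to TEAD factors, SRF targets of the actin cytoskeleton, and NF-kB targets such as chemokines. Transcripts of immediate early and chemokine genes are known to turn over quickly.

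Sequence before the start of 9 genes is shown first, because these genes belong to the programmes described below and carry matches to the motifs counted further on. They were chosen for those matches: in the same window DNAJB1 and FOS hold none of the 8 motifs, and BAG3, DDIT3 and OSGIN1 hold an AP-1 site alone. Each is the 250 bases before the RefSeq start on GRCh38.p14, read 5′ to 3′ on the strand of the gene. Capitals mark every match to 1 of 8 searched motifs, on both strands. The heat shock element was searched as GAANNTTC or TTCNNGAA, the antioxidant response element as TGACNNNGC, the amino acid response element as TGATGNAA, the cAMP response element as TGACGTCA, the AP-1 site as TGANTCA and the TEAD site as GGAATG. The CArG box bound by SRF and the NF-kB site were searched by their usual consensus. Sites whose letters depart from a searched pattern are left unmarked and uncounted. A promoter without a match, such as that of CXCL8 for the NF-kB site, may therefore still hold such a site. AP-1 and antioxidant response element matches can overlap, as can TEAD and NF-kB matches.
HSPA6, chr1:161524290-161524539, plus strand, 3 heat shock element matches, 2 AP-1 and 1 antioxidant response element: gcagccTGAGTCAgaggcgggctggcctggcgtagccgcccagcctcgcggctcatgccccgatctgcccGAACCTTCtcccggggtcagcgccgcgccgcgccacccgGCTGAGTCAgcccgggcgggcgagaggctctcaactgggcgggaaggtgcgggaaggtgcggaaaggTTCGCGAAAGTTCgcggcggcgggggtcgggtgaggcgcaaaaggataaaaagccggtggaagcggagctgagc
ZFAND2A, chr7:1160197-1160446, minus strand, 1 heat shock element and 1 antioxidant response element: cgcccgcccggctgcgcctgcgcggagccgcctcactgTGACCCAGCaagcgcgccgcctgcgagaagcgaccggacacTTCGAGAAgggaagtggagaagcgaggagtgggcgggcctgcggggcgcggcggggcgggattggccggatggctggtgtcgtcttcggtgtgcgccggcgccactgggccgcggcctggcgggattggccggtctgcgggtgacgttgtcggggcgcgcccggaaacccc
DDIT4, chr10:72273674-72273923, plus strand, 1 heat shock element: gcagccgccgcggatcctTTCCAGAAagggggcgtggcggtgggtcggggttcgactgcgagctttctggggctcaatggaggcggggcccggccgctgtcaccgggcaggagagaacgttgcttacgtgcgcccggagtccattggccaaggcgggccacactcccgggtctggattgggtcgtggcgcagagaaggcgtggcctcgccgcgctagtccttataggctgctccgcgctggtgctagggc
CHAC1, chr15:40953221-40953470, plus strand, 1 amino acid response element: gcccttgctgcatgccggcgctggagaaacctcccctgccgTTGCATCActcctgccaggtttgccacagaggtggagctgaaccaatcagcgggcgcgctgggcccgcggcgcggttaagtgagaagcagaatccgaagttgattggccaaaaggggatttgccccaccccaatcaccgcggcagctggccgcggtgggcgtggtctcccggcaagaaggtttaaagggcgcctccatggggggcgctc
EGR1, chr5:138465229-138465478, plus strand, 2 CArG boxes: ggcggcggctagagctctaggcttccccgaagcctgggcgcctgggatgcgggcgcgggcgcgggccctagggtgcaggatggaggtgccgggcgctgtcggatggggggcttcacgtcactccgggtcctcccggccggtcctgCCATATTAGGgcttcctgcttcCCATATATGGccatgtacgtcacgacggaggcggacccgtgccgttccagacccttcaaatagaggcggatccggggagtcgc
CXCL8, chr4:73740319-73740568, plus strand, 1 AP-1 site: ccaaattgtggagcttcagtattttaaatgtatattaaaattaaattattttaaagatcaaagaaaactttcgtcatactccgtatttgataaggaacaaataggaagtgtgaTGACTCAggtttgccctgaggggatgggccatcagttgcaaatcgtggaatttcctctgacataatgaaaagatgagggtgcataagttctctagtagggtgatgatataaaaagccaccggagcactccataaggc
NFKBIA, chr14:35404750-35404999, minus strand, 1 NF-kB site and 1 antioxidant response element: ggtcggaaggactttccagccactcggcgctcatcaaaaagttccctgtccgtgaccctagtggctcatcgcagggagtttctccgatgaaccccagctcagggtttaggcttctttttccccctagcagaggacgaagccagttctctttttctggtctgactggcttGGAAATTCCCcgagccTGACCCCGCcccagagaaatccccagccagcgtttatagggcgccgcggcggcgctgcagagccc
CCN2, chr6:131951373-131951622, minus strand, 3 TEAD sites, 1 of them inside an NF-kB match: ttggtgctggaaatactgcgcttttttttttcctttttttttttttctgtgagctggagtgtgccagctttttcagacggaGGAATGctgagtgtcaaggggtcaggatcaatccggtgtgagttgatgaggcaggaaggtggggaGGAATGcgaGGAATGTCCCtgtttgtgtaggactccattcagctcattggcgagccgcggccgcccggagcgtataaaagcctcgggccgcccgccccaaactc
ACTG1, chr17:81512800-81513049, minus strand, 1 CArG box: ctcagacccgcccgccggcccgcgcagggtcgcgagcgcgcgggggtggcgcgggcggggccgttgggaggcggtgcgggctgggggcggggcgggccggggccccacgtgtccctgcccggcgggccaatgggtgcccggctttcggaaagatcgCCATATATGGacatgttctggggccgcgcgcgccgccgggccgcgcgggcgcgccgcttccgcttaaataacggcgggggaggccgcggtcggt

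Depth was high in all 4 libraries, with 31645935 and 43542999 reads in the listed genes in regular culture and 40147363 and 33740886 in treated cells. Of 13028 genes tested, 4997 (38.4%) passed at a limma adjusted p under 0.05 with Benjamini-Hochberg adjustment; 2303 (17.7%) were called higher and 2694 (20.7%) lower. The shares of 17.7% and 20.7% are the background for every count of called list members below. Calls were therefore common, and the text is ordered by size: 143 genes (1.1%) were called and at least 2-fold higher, and 265 (2.03%) were called and at least 2-fold lower. A log2 fold change of at least 4 was reached by 7 genes and one of at most -4 by 6. The split of all calls depended on scaling between libraries. The share called higher among called genes was 46.1% on the deposited scale, 68.4% when scaled to the sum over listed genes, and 57.8% under quantile normalization. The median of all genes shifted by 0.068 and 0.023 log2 units under these scalings. Each of the 408 genes with changes of at least 2-fold kept its sign under both.

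**Figure D1:**
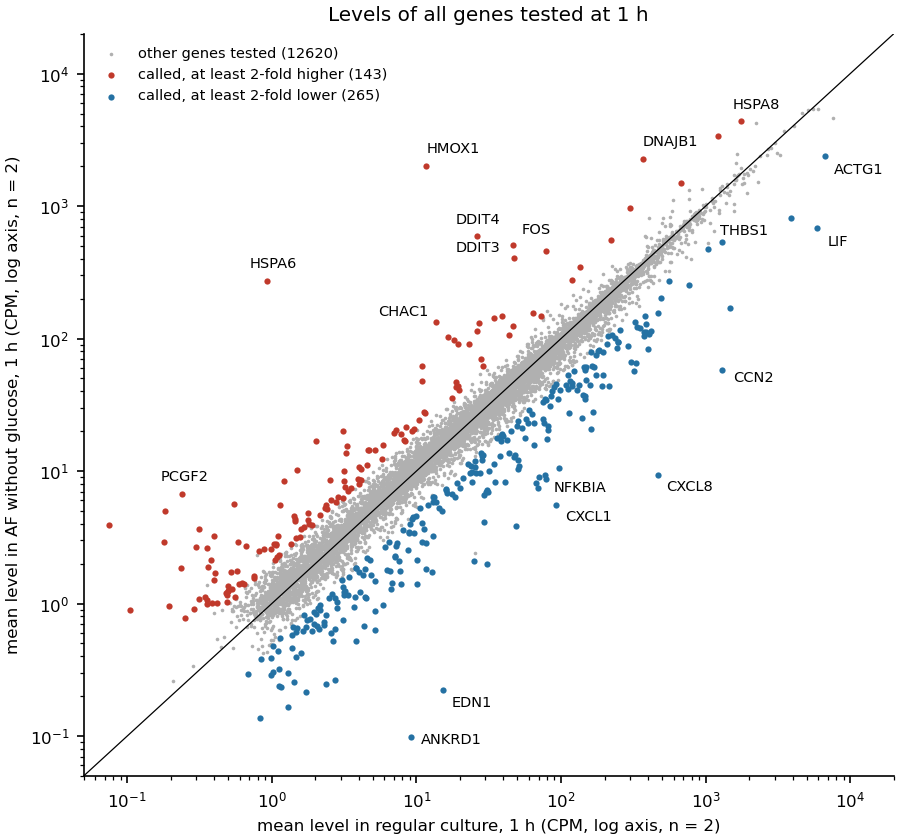
Mean level of each of the 13028 genes tested in regular culture (x axis) and in treated cells (y axis) at 1 h, in CPM on log axes, n = 2 libraries each, with 143 genes called and at least 2-fold higher in red and 265 at least 2-fold lower in blue. HMOX1 and HSPA6 stand far above the line of equal levels, and CCN2, CXCL8, EDN1 and ANKRD1 far below it.

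The rises and the falls differed in where they started. Genes at least 2-fold higher summed to 5850 and 5898 CPM in the regular libraries and to 21154 and 20241 CPM in the treated ones. Genes at least 2-fold lower summed to 41255 and 40642 CPM in the regular libraries and to 11535 and 11399 CPM in the treated ones. The falls thus took more of the RNA than the rises added. By CPM gained, the leading genes were HSPA8, EGR1, HSP90AA1, HMOX1 and DNAJB1, and by CPM lost LIF, ACTG1, THBS1, ACTB, CCN1 and CCN2. Among 2431 genes with a mean level under 5 CPM, 73 were called at least 2-fold higher and 90 lower, whereas among 6151 genes between 5 and 50 CPM these were 43 and 95. 

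Heat shock proteins and co-chaperones formed the list with the highest median among the rises. Of 38 members tested, 30 were called higher and 2 lower, 9 were at least 2-fold higher, and the median log2 fold change was 0.60, against 0.01 over all genes tested. The summed level of the list went from 13361 and 13574 CPM in the regular libraries to 26103 and 25703 CPM in the treated ones. Members whose rows are outside the table were not analysed here.

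HSPA6, an HSP70 gene that is almost silent without stress, was at 1.06 and 0.774 CPM in the regular libraries and at 291 and 256 CPM in the treated ones. These levels rest on 70 reads over the regular libraries and 22142 over the treated ones, a ratio of 307 with an exact 95% counting interval of 243 to 394. The groups were far apart and the treated libraries close to each other. Per kilobase of transcript, HSPA6 moved from rank 12246 to rank 450 of 12757 genes with a length. HSPA7, a close copy of HSPA6 listed as a pseudogene, also rose (log2 fold change 4.98, SE 0.27), but reads of the copies may have been divided between them, so its value is uncertain.

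Several co-chaperones followed at higher starting levels. DNAJB1, an HSP40 that stimulates HSP70, was at 366 and 367 CPM in regular culture and at 2337 and 2204 CPM in treated cells (log2 fold change 2.63, SE 0.03; limma adjusted p = 2.57e-21). ZFAND2A, an arsenite-inducible proteasome-associated protein, went from 15.99 and 16.87 to 108 and 96.8 CPM. BAG3, which links HSP70 to autophagy, went from 78.3 and 78.8 to 470 and 442 CPM. In each of these genes both treated libraries lay above both regular libraries by several fold. DNAJB4 rose by 2.41 log2 units, HSPH1, an HSP110 nucleotide exchange factor, by 1.70, and CHORDC1, an HSP90 co-chaperone, by 1.10. Most genes of the DNAJ family did not move. Of 38 tested, 12 (31.6%) were called higher, 2 lower and 24 were not called, against 17.7% higher over all genes tested. The median of the family was 0.01, and 3 members were at least 2-fold higher.

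The constitutive chaperones changed less in fold and more in RNA. HSPA8, the main constitutive HSP70, went from 1748 and 1766 to 4334 and 4374 CPM (log2 fold change 1.31, SE 0.03), the largest gain in CPM of any gene. HSP90AA1, the inducible HSP90, went from 2219 and 2267 to 4270 and 4274 CPM. DNAJA1 rose by 0.99, the mitochondrial chaperonin genes HSPD1 and HSPE1 by 0.91 and 0.88, and the small heat shock gene HSPB1 by 0.69 log2 units. HSPB8, another small heat shock gene, did not pass the test (0.06, SE 0.05). The called falls were small, in BAG5 (-0.18) and in HSPA13 (-0.13), an ER-associated HSP70.

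Heme breakdown was led by a single gene. HMOX1 (chr22:35381096-35394207), the heme oxygenase that releases iron and carbon monoxide from heme, was at 11.8 and 11.6 CPM in regular culture and at 2069 and 1981 CPM in treated cells, a ratio of 173. Per kilobase it rose from rank 7125 to rank 20 of 12757 genes, and regular culture at 7 h stayed near the 1 h level, at 9.46 and 11.1 CPM. The ferritin subunits that store iron rose from high levels, FTL from 795 and 751 to 1320 and 1331 CPM (log2 fold change 0.78) and FTH1 from 975 and 925 to 1350 and 1334 CPM (0.50). FLVCR1, a heme exporter, fell by 0.48 and TFRC, the transferrin receptor, fell by 0.30. Of the 19 genes tested for heme and iron handling, 6 were called higher and 5 lower, and HMOX1 was the member past 2-fold. These shares of 31.6% and 26.3% compare with 17.7% and 20.7% over all genes tested.

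The wider NRF2 list moved unevenly. Of 40 members tested, 19 were called higher and 6 lower, with a median of 0.12, and HMOX1 and OSGIN1, an oxidative stress growth inhibitor, were the 2 members at least 2-fold higher. OSGIN1 went from 26.9 and 27.7 to 131 and 132 CPM (log2 fold change 2.27, SE 0.05). SLC7A11, the cystine importer, went from 82.8 and 77.9 to 164 and 157 CPM, GCLM, a subunit of glutamate cysteine ligase, from 65.4 and 60.1 to 103 and 94.9 CPM, and NQO1, a quinone reductase, from 581 and 551 to 688 and 729 CPM. TXNRD1, which encodes the enzyme in the series title, was at 402 and 407 CPM in regular culture and at 411 and 426 CPM in treated cells, and did not pass (0.05, SE 0.03; limma adjusted p = 0.21); it did pass when scaled to the total (0.12) and with quantile normalization (0.13). Partners and a repressor of the pathway were among the 6 called falls: MAFK, a small MAF partner, fell by 1.43, MAFF by 0.70 and BACH1, which represses HMOX1, by 0.81 log2 units. The others were NFE2L2, the gene of NRF2 itself, which fell by 0.19, LUCAT1 by 0.48 and ABCC1 by 0.39. All of these but ABCC1 were marked as high in passing in regular culture at 1 h.

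Beyond these genes, thiol enzymes changed little. Of 33 thioredoxin, peroxiredoxin and glutathione genes tested, 5 were called higher and 2 lower on the deposited scale, and none reached 2-fold. Scaled to the total, 17 were called higher and 1 lower, so the count for this list depends on scaling. SOD2, the mitochondrial superoxide dismutase and also an NF-kB target, fell from 26.6 and 24.5 to 12.9 and 13.2 CPM (-0.97, SE 0.07).

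The integrated stress response held the second group of large rises. Of 24 factors and feedback genes tested, 16 were called higher and 4 lower, and 8 were at least 2-fold higher, with a median of 0.44. DDIT4, which restrains mTORC1, was at 24.7 and 27.4 CPM in regular culture and at 607 and 580 CPM in treated cells (log2 fold change 4.51, SE 0.05; limma adjusted p = 2.71e-22). CHAC1, which degrades glutathione, went from 13.1 and 14.4 to 134 and 133 CPM. Its regular level at 1 h was marked as high in passing, with 3.01 and 2.98 CPM in regular culture at 7 h. DDIT3, which encodes the factor CHOP, went from 46.8 and 47.8 to 405 and 404 CPM. Both treated libraries of each gene lay far above both regular libraries, and differed from each other by a few percent.

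SESN2, a sestrin that senses leucine and restrains mTORC1, went from 25.01 and 27.45 to 117 and 112 CPM. TRIB3, a pseudokinase that feeds back on ATF4, went from 37.6 and 41.02 to 150 and 146 CPM, and GDF15, a stress cytokine, from 37.6 and 31.5 to 148 and 139 CPM. NFIL3 and CREBRF, both bZIP factors, rose by 1.24 and 1.36 log2 units. ATF4 itself rose by 0.44, from 408 and 431 to 562 and 579 CPM, while ATF5 fell by 0.38. The eIF2α kinase genes EIF2AK3 and EIF2AK4 fell by 0.28 and 0.15. ATF3, a stress-inducible partner of ATF4, was at 218 and 204 CPM in regular culture and at 209 and 196 CPM in treated cells and did not pass, but regular culture at 7 h stood at 6.24 and 6.44 CPM, so its regular level at 1 h was high in passing.

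Genes that supply amino acids were called more often but moved less. Of 31 synthesis, transport and tRNA synthetase genes tested, 25 were called higher and 1 lower, with a median of 0.25, and 2 were at least 2-fold higher. CTH, which makes cysteine from cystathionine, went from 3.04 and 3.23 to 8.47 and 8.23 CPM. ASNS, asparagine synthetase, went from 75.9 and 73.2 to 144 and 144 CPM, and SLC3A2, the partner of SLC7A11, from 493 and 499 to 753 and 733 CPM. SLC7A1, a cationic amino acid transporter, was the member called lower (-0.54). The rise of CARS1 (1.02, SE 0.34) rests on treated libraries at 6.82 and 10.3 CPM and regular 7 h libraries at 2.73 and 9.22 CPM, a wide spread within groups.

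**Figure D2:**
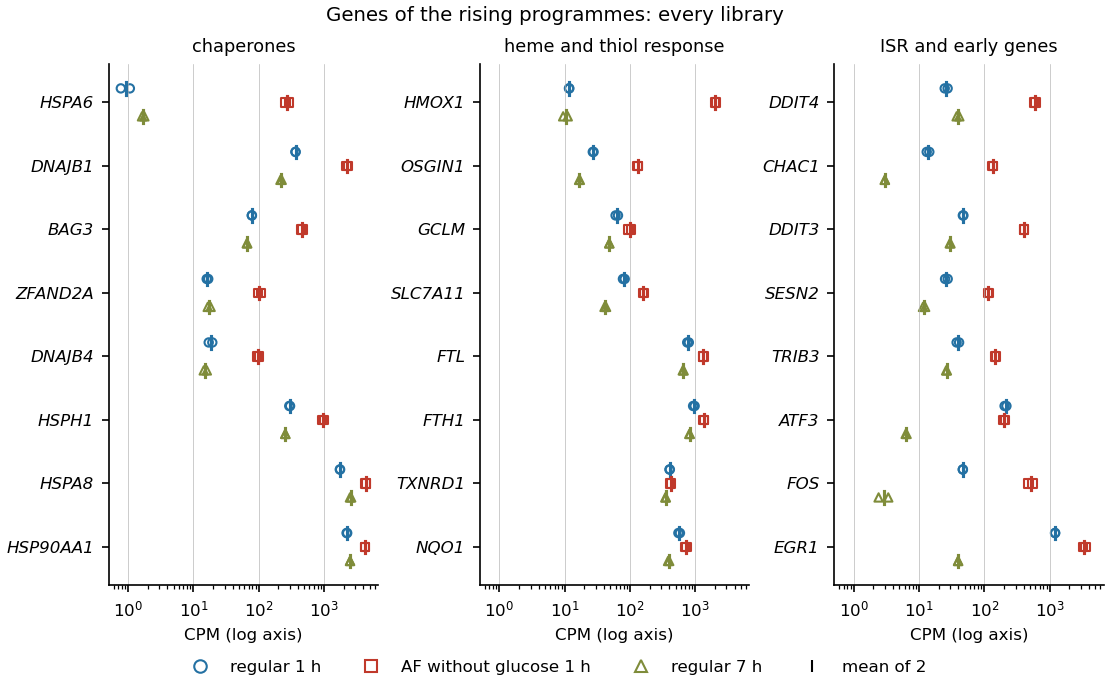
CPM of each library, on a log axis, for genes of the rising programmes in regular culture at 1 h (circles), AF without glucose at 1 h (squares) and regular culture at 7 h (triangles); bars are means of 2. HSPA6 and HMOX1 show the widest gaps, TXNRD1 and ATF3 overlap or nearly overlap between the 1 h groups, and FOS, EGR1 and ATF3 are far lower in regular culture at 7 h.

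Immediate early genes split by gene. In regular culture at 1 h most of them were far above their regular 7 h level. Of 29 EGR, NR4A and related genes tested, 8 were called higher and 20 lower, 2 were at least 2-fold higher and 9 at least 2-fold lower, and the median was -0.62; the median of regular 7 h minus regular 1 h was -2.49. EGR1, a zinc finger factor induced by serum and stress, went from 1208 and 1216 to 3538 and 3260 CPM (log2 fold change 1.49, SE 0.03). EGR4 went the other way, from 10.8 and 9.53 to 1.48 and 1.33 CPM. ARC fell by 2.97, the antiproliferative gene BTG2 by 2.15, and the orphan receptor gene NR4A1, high at 1595 and 1526 CPM, by 0.76 log2 units. All 9 members at least 2-fold lower were marked as high in passing.

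The AP-1 family showed the same division. FOS was at 46.9 and 46.7 CPM in regular culture and at 548 and 472 CPM in treated cells (log2 fold change 3.44, SE 0.10). FOSL2 fell from 408 and 395 to 86.5 and 80.8 CPM, JUNB from 382 and 370 to 114 and 96.6 CPM, and FOSL1 from 1032 and 1053 to 475 and 470 CPM. FOSB fell by 0.82 and JUN by 0.22. Of 10 AP-1 genes tested, FOS was the single member called higher and 7 were called lower. The 3 members at least 2-fold lower were all marked as high in passing. Regular culture at 7 h was at 64.6 and 59.0 CPM for FOSL2, 10.3 and 10.7 CPM for JUNB, and 488 and 456 CPM for FOSL1. FOS and EGR1 were marked as high in passing in regular culture, at 2.40 and 3.38 CPM and at 39.8 and 39.5 CPM in the regular 7 h libraries, and were higher still in treated cells.

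Feedback phosphatases and KLF factors divided likewise. DUSP2, a nuclear MAP kinase phosphatase, went from 2.95 and 3.67 to 16.9 and 13.8 CPM, and DUSP1 rose by 0.97 log2 units. DUSP5 and DUSP6, phosphatases of the ERK kinases, fell by 1.41 and 1.36, and DUSP7 by 1.44. KLF7 went from 157 and 166 to 20.5 and 20.9 CPM (-2.96, SE 0.05), and KLF5, KLF2 and KLF10 fell by 1.57, 1.40 and 1.26. KLF4 rose by 0.41 and KLF15, near 2 CPM, by 1.18. In the DUSP and SPRY list 4 of 15 tested were called higher and 8 lower, and in the KLF list 3 of 13 and 8. Of the members at least 2-fold lower, 2 of 3 in the DUSP and SPRY list and 4 of 4 in the KLF list were marked as high in passing.

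Chemokine and cytokine genes had the lowest median of the lists. Of 12 tested, 11 were called lower and none higher, 7 were at least 2-fold lower, and the median log2 fold change was -1.96. Summed, the list went from 6934 and 6936 CPM in the regular libraries to 876 and 919 CPM in the treated ones. All 7 large falls were of genes marked as high in passing. Over all genes tested, 4.7% were called and at least 2-fold lower at 7 h than at 1 h in regular culture, and 1.55% were called and at least 2-fold higher.

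CXCL8, the neutrophil chemokine interleukin 8, was at 470 and 470 CPM in regular culture, at 8.58 and 10.2 CPM in treated cells and at 14.3 and 12.9 CPM in regular culture at 7 h. CXCL1, a related chemokine, went from 93.6 and 92.4 to 5.82 and 5.31 CPM. LIF, a cytokine of the interleukin 6 family, was the gene with the largest loss of CPM, from 5899 and 5918 to 664 and 713 CPM (-3.10, SE 0.04). In all 3 genes the treated libraries were far below the regular 1 h level and closer to the regular 7 h level. CXCL8 and CXCL1 ended below that 7 h level and LIF above it. IL11 fell by 2.47 and IL6 by 2.00, while PTGS2, the inducible cyclooxygenase, fell by 0.40, from 91.8 and 74.5 to 62.6 and 62.7 CPM.

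NF-kB feedback genes fell with the chemokines. Of 22 subunits, feedback and target genes tested, 16 were called lower and 3 higher, and 9 were at least 2-fold lower, 8 of them marked as high in passing. NFKBIA, the inhibitor that NF-kB induces to end its own activity, went from 78.9 and 76.1 to 8.31 and 10.4 CPM (-3.06, SE 0.08). TNFAIP3, the A20 deubiquitinase, went from 68.8 and 69.3 to 7.37 and 7.60 CPM, and BIRC3, an inhibitor of apoptosis, from 25.2 and 24.9 to 2.15 and 2.07 CPM. BIRC3 and NFKBIA ended below their regular 7 h level, which was 6.62 and 6.51 CPM for BIRC3 and 27.9 and 29.2 CPM for NFKBIA. RELB fell by 2.05, while RELA, the main activating subunit, fell by 0.29. NFKBIZ, an atypical nuclear IκB, rose by 0.79.

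Targets of YAP and TAZ fell, and WWTR1 did not pass the test. Of 31 target genes tested, 24 were called lower and none higher; 13 were at least 2-fold lower, 10 of them marked as high in passing. WWTR1 was at 416 and 395 CPM in regular culture and at 391 and 385 CPM in treated cells (-0.06, SE 0.03). Gene counts cannot tell reads of an introduced TAZ form, if any, from those of the endogenous gene. CCN2, a matrix protein and standard TAZ target, went from 1330 and 1282 to 58.0 and 58.1 CPM, a 22.5-fold lower level, and its relative CCN1 went from 1495 and 1466 to 180 and 158 CPM. Per kilobase, CCN2 moved from rank 58 to rank 2564 and CCN1 from rank 43 to rank 791. Both were marked as high in passing, with 90.2 and 87.8 CPM for CCN2 and 85.3 and 83.3 CPM for CCN1 in regular culture at 7 h. Treated cells were below that 7 h level for CCN2 and above it for CCN1.

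The deepest falls in the list were of less abundant genes. ANKRD1, a nuclear ankyrin repeat protein, was at 9.21 and 9.02 CPM in regular culture and at 0.114 and 0.0817 CPM in treated cells, where it rested on 8 reads. EDN1, the precursor of endothelin 1, had 1213 reads in regular culture against 18 after treatment, which is 69.5-fold lower as CPM, with an exact 95% counting interval of 43.8 to 118. NUAK2, a kinase, went from 78.3 and 79.9 to 9.13 and 8.25 CPM, and F3, the tissue factor of coagulation, from 69.5 and 63.9 to 8.65 and 7.57 CPM. ANKRD1, EDN1 and NUAK2 were marked as high in passing. Regular culture at 7 h was at 0.480 and 0.684 CPM for ANKRD1, 1.17 and 1.35 CPM for EDN1, and 10.5 and 8.76 CPM for NUAK2. AMOTL2, which holds YAP and TAZ out of the nucleus, fell by 1.90, and LATS2, the kinase that phosphorylates them, by 1.18. AXL, a receptor kinase and target of long standing, fell by 0.21.

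THBS1, the adhesive matrix protein thrombospondin 1, was not high in passing, unlike most large falls of this list. It was at 3877 and 3912 CPM in regular culture, at 820 and 808 CPM in treated cells, and at 3414 and 3223 CPM in regular culture at 7 h. Its fall (-2.26, SE 0.04) thus held against both regular groups. FJX1, a secreted protein, had the same form, from 30.5 and 31.3 to 7.17 and 7.22 CPM with 21.9 and 22.3 CPM in regular culture at 7 h. Of 20 Hippo kinases and TEAD partners tested, 10 were called lower and none higher, 2 of them at least 2-fold, VGLL3 (-1.85) and LATS2; scaled to the total, 7 were called lower and 2 higher. TEAD1 did not pass (-0.02, SE 0.03), and YAP1 fell by 0.13, a call that was lost under both other scalings.

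Secreted growth factors overlapped with these targets. Of 24 tested, 16 were called lower and 3 higher, and 7 were at least 2-fold lower, 5 of them marked as high in passing. HBEGF, an EGF receptor ligand, went from 96.9 and 95.9 to 9.998 and 11.03 CPM (-3.19, SE 0.06). FGF5, a fibroblast growth factor, fell by 2.12 and PTHLH, parathyroid hormone-like hormone, by 2.13, both with regular 7 h levels near regular 1 h. The members called higher were GDF15, VEGFA (0.57) and BMP4 (0.67).

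The actin genes fell from the top of the level range. Of 38 SRF and actin cytoskeleton genes tested, 28 were called lower and 2 higher, and 10 were at least 2-fold lower, 6 of them marked as high in passing. The median was -0.49, and that of regular 7 h minus regular 1 h over the whole list was 0.03. Summed, the list went from 33419 and 33846 to 21163 and 21078 CPM. ACTG1, cytoplasmic gamma actin, was at 6778 and 6646 CPM in regular culture, at 2393 and 2420 CPM in treated cells and at 6547 and 6476 CPM in regular culture at 7 h. ACTB, cytoplasmic beta actin, went from 7551 and 7592 to 4637 and 4556 CPM (-0.72, SE 0.03) with 8204 and 8126 CPM in regular culture at 7 h. For both genes the treated libraries stood apart from all 4 regular libraries.

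CNN1, smooth muscle calponin, had the largest fall of this list, from 11.7 and 11.6 to 1.99 and 1.63 CPM (-2.66, SE 0.13), with 12.9 and 12.4 CPM in regular culture at 7 h. SRF, the factor that binds CArG boxes, fell from 211 and 218 to 44.5 and 42.8 CPM, but regular culture at 7 h was as low, at 38.1 and 36.8 CPM. VCL, the adhesion protein vinculin, went from 347 and 351 to 120 and 120 CPM, with 161 and 157 CPM in regular culture at 7 h. FLNA, a filamin, fell by 0.43. The members called higher were CDC42EP3 (0.37) and MRTFB (0.27). The WAVE complex genes, which are linked to disulfidptosis, gave no called fall: of 17 genes tested in that list 3 were called higher, WASF2 (0.15) and the cystine carrier genes SLC7A11 and SLC3A2, and none lower.

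**Figure D3:**
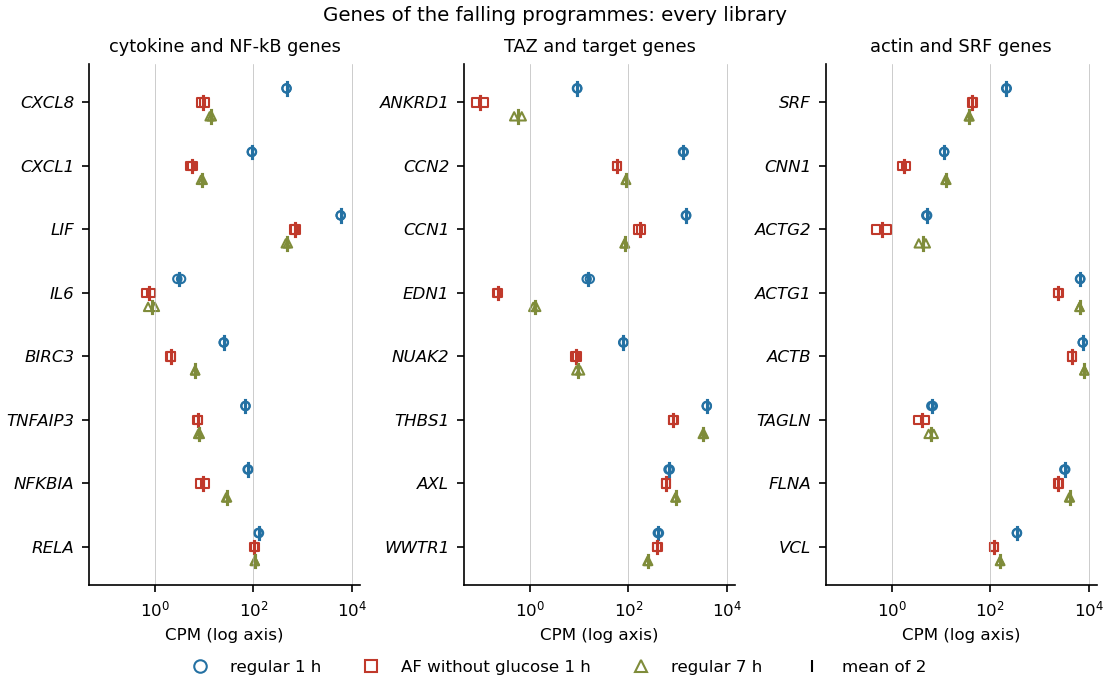
CPM of each library, on a log axis, for genes of the falling programmes in regular culture at 1 h (circles), AF without glucose at 1 h (squares) and regular culture at 7 h (triangles); bars are means of 2. For CXCL8, CCN2 and SRF the triangles lie closer to the squares than to the circles, whereas for THBS1, CNN1, ACTG2, ACTG1 and ACTB they lie near the circles.

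The mark divides the falls of the whole comparison. Of the 265 genes at least 2-fold lower, 149 (56.2%) were high in passing, that is, also called and at least 2-fold lower at 7 h than at 1 h in regular culture. For a further 57 (21.5%) the regular groups were within 0.5 log2 units of each other, so treated cells were low against both regular groups, 50 (18.9%) lay between, and 9 were at least 2-fold higher at 7 h in regular culture. Of the 143 genes at least 2-fold higher, 12 (8.39%) were high in passing, 29 (20.3%) were low in passing and for 59 (41.3%) the regular 1 h level was within 0.5 log2 units of the regular 7 h level. Over all genes tested, 78.5% had regular groups within 0.5 log2 units, so that mark was less common among the large changes. A further 15.2% of all genes lay between, 4.7% were high in passing and 1.55% low in passing. Both contrasts use the regular 1 h libraries, so these counts are marks and not separate support.

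Among falls against both regular groups the leading genes with at least 5 CPM were SPOCD1, ACTG2, CNN1, TRNH and THBS1. SPOCD1, a SPOC domain protein, went from 46.05 and 51.37 to 4.13 and 3.51 CPM, with a mean of 56.4 CPM in regular culture at 7 h (-3.66, SE 0.10). ACTG2, enteric gamma actin, went from 5.05 and 5.26 to 0.479 and 0.790 CPM. GLIPR1 fell by 2.19 and DUSP7, named above, also belongs to this group. Among rises against both regular groups the leading genes, pseudogenes left out, were HMOX1, PCGF2, SLC7A11-AS1, MYCN and ZFAND2A. MYCN, a MYC family factor, went from 1.06 and 1.35 to 8.22 and 8.69 CPM. PCGF2, a Polycomb protein, was at 4.43 and 9.10 CPM in the treated libraries, a wide gap. Reads of SLC7A11-AS1 cannot be told from those of SLC7A11 without strand marks.

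Other large rises fell outside the main programmes. KCNE4, a potassium channel subunit, went from 3.19 and 3.01 to 20.4 and 19.6 CPM, and PPP1R3C, which targets a phosphatase to glycogen, from 1.55 and 1.46 to 10.6 and 9.70 CPM. Both were already low in passing, with 9.43 and 9.07 CPM for KCNE4 and 4.22 and 4.57 CPM for PPP1R3C in regular culture at 7 h. MXD1, a MAX-binding repressor, went from 11.2 and 10.6 to 64.1 and 60.7 CPM, SAT1, which acetylates polyamines, from 24.04 and 21.87 to 90.8 and 90.3 CPM, and NEAT1, the paraspeckle long non-coding RNA, from 224 and 222 to 565 and 545 CPM. ARRDC3, an alpha-arrestin, rose by 2.23, while its relative TXNIP, which blocks thioredoxin and glucose uptake, fell by 0.43, from 23.0 and 24.1 to 18.5 and 16.5 CPM.

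Genes of glucose use moved little at 1 h. Of 31 uptake and glycolysis genes tested, 4 (12.9%) were called higher and 7 (22.6%) lower, against 17.7% and 20.7% of all genes tested. None reached 2-fold. The balance turned over to 11 and 5 when scaled to the total and 10 and 5 under quantile normalization. SLC2A3, the neuronal-type glucose transporter, rose by 0.92, from 24.7 and 23.7 to 45.5 and 45.9 CPM, and PDK4, which shuts pyruvate dehydrogenase, by 0.78. PFKFB4 and PFKFB3, which control phosphofructokinase, fell by 0.65 and 0.42. GAPDH was at 5007 and 5124 CPM in regular culture and at 5235 and 5411 CPM in treated cells and did not pass (0.07, SE 0.03). Of 19 hypoxia-type genes tested, 7 were called higher and 4 lower, and HIF1A did not pass (0.02, SE 0.03).

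Calls were common among death and clock genes, and few of them were large. Over all genes tested, 17.7% were called higher and 20.7% lower. The ER genes (20.8% and 20.8%) and the cholesterol and fatty acid genes (23.1% and 19.2%) counted below lay near these shares. HERPUD1, an ER degradation factor, went from 45.7 and 46.7 to 126 and 124 CPM, while HSPA5, the main ER chaperone, rose by 0.38; of 24 ER genes tested 5 were called higher and 5 lower, or 13 and 4 when scaled to the total. Among 21 BCL2 family and death receptor genes tested, 12 were called lower and 3 higher. BIRC3, given above, is a member and the fall past 2-fold. The rises were of pro-apoptotic BH3 genes, BCL2L11 (1.00), BMF (1.01) and BID (0.29), and the falls included the survival gene MCL1 (-0.62) from 1993 and 1843 to 1277 and 1219 CPM. Of 16 clock genes tested, 7 were called higher, 2 of them at least 2-fold, and 6 lower. CIART, a repressor of the clock, rose by 1.62 and PER1 fell by 0.67. Of 15 mTORC1 brakes tested 7 were called higher and none lower, of 24 p53 targets 6 and 12, of 30 autophagy and lysosome genes 9 and 6, and of 26 cholesterol and fatty acid genes 6 and 5; scaled to the total, the last pair were 15 and 4, and 10 and 3. CLK1, a kinase of splicing factors, went from 67.5 and 60.8 to 167 and 146 CPM, while SRSF2 and SRSF1 fell by 0.52 and 0.30.

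Housekeeping lists had no member at 2-fold. Of 31 proteasome genes tested, 2 were called higher and 3 lower; of 80 cytosolic ribosomal protein genes, 3 and 4; of 34 nuclear respiratory chain genes, 1 and 7; of 32 replication genes, 5 and 9; of 31 mitotic genes, 8 and 7. These splits depended on scaling. Scaled to the total, the counts higher and lower were 6 and 1 for the proteasome, 37 and 2 for ribosomal proteins, 7 and 1 for the respiratory chain, 12 and 5 for replication and 12 and 3 for mitosis. Under quantile normalization they were 13 and 0, 43 and 3, 8 and 2, 14 and 5, and 13 and 2. Ribosome biogenesis genes were called lower in 14 of 30, among them RRP12 (-0.54), and higher in 3, or in 8 and 5 when scaled to the total. Of 6 metallothionein and zinc transport genes tested, SLC30A1, a zinc exporter, was called lower (-0.64), and MT2A was at 487 and 443 CPM in regular culture and at 409 and 481 CPM in treated cells and did not pass.

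**Figure D4:**
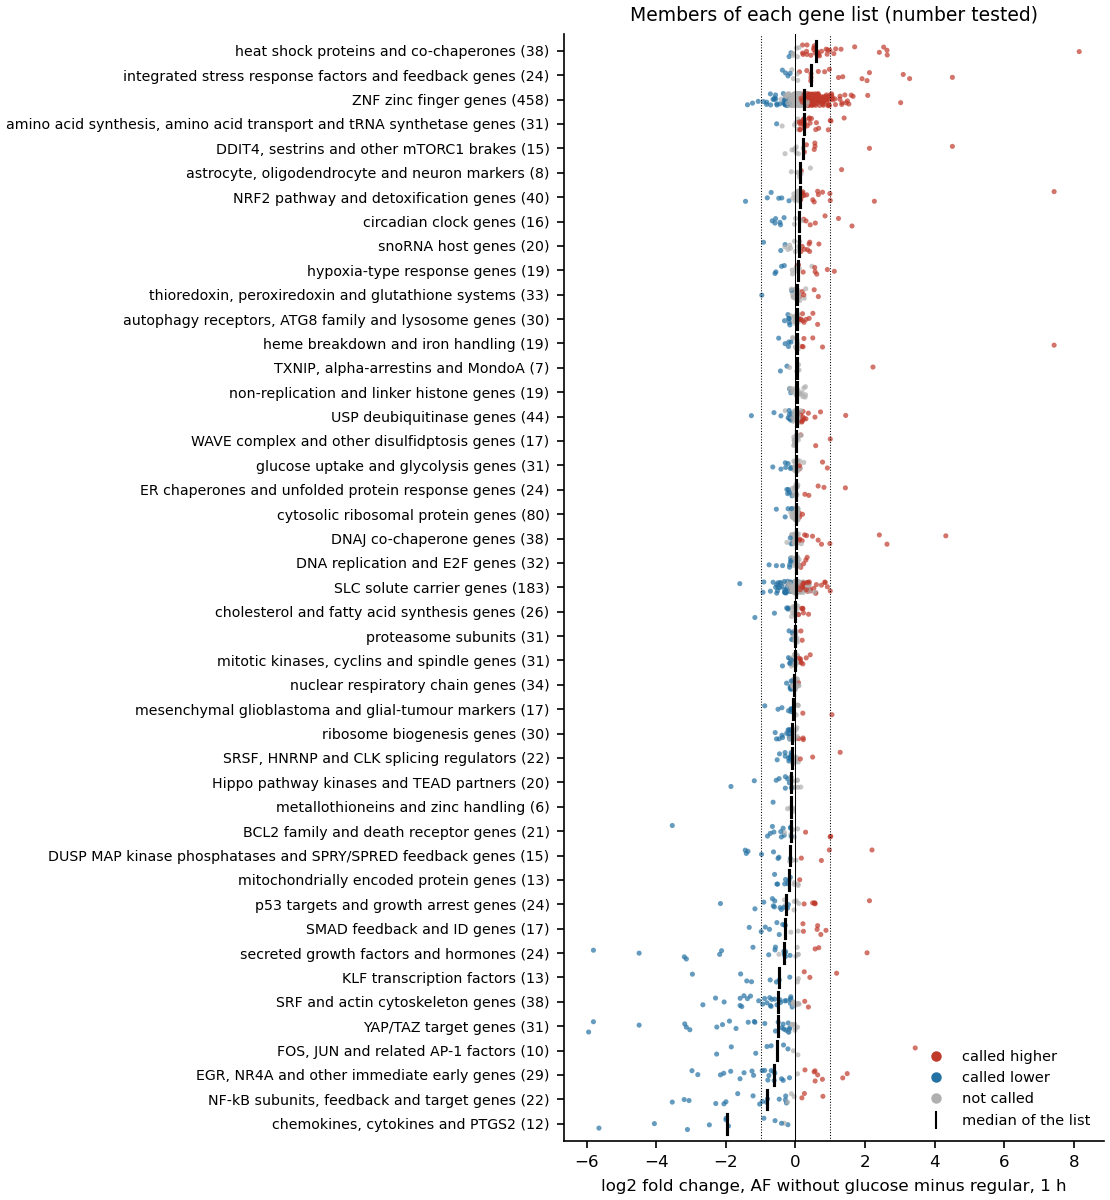
Log2 fold change at 1 h (treated minus regular) of every tested member of each gene list with at least 6 members, ordered by the list median (black bar); red points were called higher, blue lower and grey not called, and dotted lines mark 2-fold. Chemokines and cytokines lie lowest with a median of -1.96, heat shock proteins highest with 0.60, and most lists centre near 0 with a few far members.

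Zinc finger genes with ZNF names made up a broad and shallow rise. Of 458 tested, 244 (53.3%) were called higher and 38 lower, with a median of 0.26, beside 16.4% called higher among the other 12570 genes. The class was also lower at 1 h than at 7 h in regular culture, with a median of 0.21 for regular 7 h minus regular 1 h. In the range of 5 to 50 CPM, where most of them lie, 187 of 325 ZNF genes (57.5%) were called higher, against 19.7% of 5826 others. Above 50 CPM, 10 of 36 ZNF genes (27.8%) were called higher and 16 lower, against 642 of 4410 others (14.6%) higher and 1469 lower. Of the large changes, 19 were rises and 3 were falls, of ZNF217 (-1.38), ZNF93 (-1.23) and ZNF281 (-1.07). Under quantile normalization 230 were called higher and 40 lower.

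Among the large ZNF rises, 14 of the 19 lay on chromosome 19, which holds 227 of the 458 ZNF genes tested, and 10 of these lay in the run from ZNF627 to ZNF490 (chr19:11597483-12610813, GRCh38), a stretch chosen after its values were seen. Of the 22 ZNF genes tested in this run 20 were called higher, with a median of 0.89, against 107 of 205 and a median of 0.26 for ZNF genes elsewhere on chromosome 19. Outside the run, 4 of 205 on that chromosome and 5 of 231 on other chromosomes were at least 2-fold higher. ZNF844 went from 3.07 and 3.41 to 14.1 and 13.5 CPM, ZNF441 from 4.65 and 5.66 to 14.5 and 14.5 CPM, and ZNF564 from 3.28 and 3.03 to 10.8 and 9.32 CPM. ZNF442 went from 0.182 and 0.420 to 2.81 and 2.51 CPM, on 25 and 215 reads. ZNF136 and ZNF443, inside the same run, did not pass (0.01 and 0.14). Regular culture at 7 h was also above 1 h for most of the run, with a median difference of 0.91, and 10 of the 22 were marked as low in passing. These genes are close copies of each other, so reads may be divided among them in a way the files do not record.

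Genes with large changes were compact. The median gene span was 17.1 kb for the genes at least 2-fold higher and 16.2 kb for those at least 2-fold lower, against 30.2 kb over all genes tested. The median number of introns in the longest transcript was 3, 4 and 8. Genes without introns made up 10.1%, 8.98% and 3.17%. Long non-coding RNA genes were 7.69% of the rises and 9.43% of the falls, against 5.02% of all genes tested.

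Small RNA genes inside the introns of other genes gave a further pattern, named after the values were seen. Of 34 snoRNA, miRNA and similar genes tested, 25 lay inside another tested gene and 11 of these changed at least 2-fold. SNORD14C, SNORD14D and SNORD14E, inside HSPA8, rose by 2.22, 2.87 and 2.72 log2 units, more than HSPA8 at 1.31. SNORD63, inside the mitochondrial HSP70 gene HSPA9, rose by 2.42 from 0.517 and 0.243 to 2.31 and 1.99 CPM, while HSPA9 rose by 0.33. MIR616, inside DDIT3, rose by 4.07 (SE 0.54), from uneven regular libraries at 0.0304 and 0.332 CPM. It had 16 reads over the regular libraries and 235 over the treated ones. That is a ratio of 14.2, with an exact 95% counting interval of 8.59 to 25.3. Other snoRNA genes fell, and hosts did not always move with them: SNORD44 and SNORD47 fell by 1.62 and 1.26 inside GAS5, which rose by 0.41, and SNORD31 fell by 1.01 inside SNHG1, which rose by 0.67. SNORA73A fell by 1.58 inside SNHG3, which fell by 0.92. Reads over these genes may come from host introns, since the libraries are not strand-marked or size-selected for small RNA; this was not tested.

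Mitochondrially encoded protein genes held 2.73% to 2.92% of reads in the listed genes of the 4 libraries, with the groups overlapping. On the deposited scale they summed to 26911 and 28098 CPM in regular culture and to 25031 and 26136 CPM in treated cells. Of the 13 tested, 8 (61.5%) were called lower and 1 higher, with a median of -0.19, against 20.7% lower over all genes tested. Scaled to the total, 7 were called lower and 3 higher, and under quantile normalization 8 and 4. Of 12 mitochondrial tRNA genes tested, 10 were called lower and 2 higher, 6 were at least 2-fold lower, and the median was -1.25, while regular culture at 7 h lay at a median of -0.02 from 1 h. TRNH went from 5.62 and 6.17 to 0.982 and 0.953 CPM, and its neighbours TRNS2 and TRNL2 fell by 1.98 and 1.64. TRNG fell by 2.25. TRNC and TRNP rose, by 0.31 and 0.43. Among the protein genes ND2, ND1 and ND3, subunits of complex I, fell by 0.60, 0.53 and 0.51, whereas ND4 rose by 0.12. The tRNA group was chosen after its values were seen, and its levels rest on few reads per library. Because the libraries were not size-selected for small RNA, these values count reads over the tRNA genes and need not follow mature tRNA. The source of the reads was not tested.

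Some changed genes were neighbours. Among genes at least 2-fold higher, 16 of 141 with coordinates had another such gene within 10 kb, and among those at least 2-fold lower, 31 of 257. The matching share over all genes tested was not computed, so these counts describe positions only. They include small RNA genes with their hosts, as SNORD14C, SNORD14D and SNORD14E with HSPA8 and MIR616 with DDIT3. They also include SNORD44 with SNORD47 and the mitochondrial tRNA genes with each other. Other pairs are ADAMTSL4 with ADAMTSL4-AS1, OSGIN1 with NECAB2, and CHORDC1 with NAALAD2 among the rises. Among the falls are ACTG1 with FSCN2, CCN1 with DDAH1, RGMB with RGMB-AS1 and PDGFA with PDGFA-DT. In libraries without strand marks, reads of an antisense or overlapping partner cannot be told from those of the gene. DNAJA3 (4.32, SE 0.92) is uncertain, as it rests on 15 reads in the regular libraries and on treated libraries at 2.81 and 7.11 CPM.

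The promoters of the changed genes were searched for the 8 motifs in the window from 250 bases before to 50 after the start. RefSeq entries were matched for 10451 of the genes tested, 103 of those at least 2-fold higher and 190 of those at least 2-fold lower. A heat shock element was present in 17.5% of promoters of the higher genes, 9.47% of the lower genes and 10.1% of all genes tested. Of 8 large heat shock list members with a promoter, 4 held it, and ZFAND2A and HSPA6, shown above, are among them. Over the whole heat shock list it was present in 10 of 32 promoters (31.25%). A CArG box was present in 6.84% of promoters of the lower genes, 1.94% of the higher and 1.09% of all; among the 10 large SRF and actin falls 5 held it, as the ACTG1 sequence shows. EGR1, which rose, also carries CArG boxes. The amino acid response element was present in 1 of the 8 large integrated stress response rises, CHAC1, and in 1.71% of all genes tested.

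The NF-kB site, in the letters searched, was present in 38 of the 190 promoters of lower genes against 12.7% of all, and in 8 of 13 large falls of the NF-kB and cytokine lists. The AP-1 site was present in 14.2% of promoters of lower genes against 4.51% of all. The TEAD site was present in 15.3% against 10.7%, and in 5 of 10 large YAP/TAZ list falls, with 3 matches in CCN2. The antioxidant response element was present in 14.6% of promoters of the higher genes, 14.2% of the lower genes and 15.1% of all. The lists were in part compiled from genes known to carry such sites, so these shares describe the sequences and are not independent of the lists. Over all 27305 promoters in the table the heat shock element was present in 13.7%, the NF-kB site in 10.8% and the CArG box in 1.29%. On the same basis the TEAD site was present in 14.0%, near the share of the lower genes, and the AP-1 site in 7.76%. The antioxidant, amino acid and cAMP response elements were present in 13.6%, 3.67% and 1.98%.

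**Figure D5:**
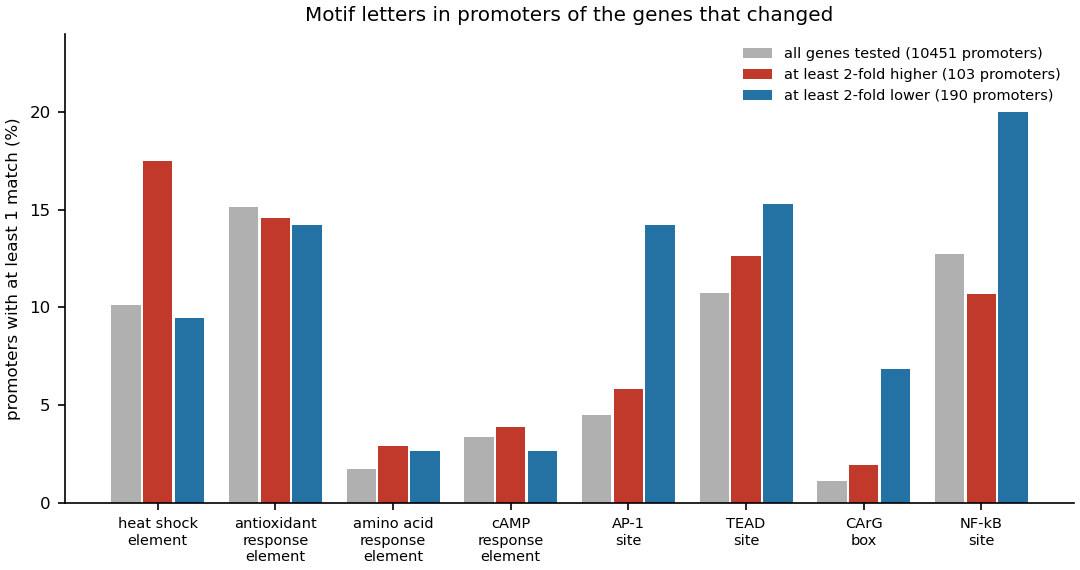
Percent of promoters with at least 1 match to each motif, for all genes tested (grey, 10451 promoters), genes at least 2-fold higher (red, 103) and genes at least 2-fold lower (blue, 190), on an axis from 0. The heat shock element bar is highest in the genes that rose (17.5%), and the AP-1, CArG and NF-kB bars are highest in the genes that fell (14.2% and 6.84% for AP-1 and CArG, and 38 of 190 promoters for NF-kB).

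VIM, an intermediate filament of mesenchymal glioma cells, was at 2867 and 2843 CPM in regular culture and at 2731 and 2807 CPM in treated cells, and CD44, a hyaluronan receptor, at 963 and 943 and at 863 and 879 CPM (-0.13, called lower, but not when scaled to the total). Of 17 mesenchymal and glial tumour markers tested, 2 were called higher and 8 lower, and of 8 astrocyte, oligodendrocyte and neuron markers 2 were called higher and 6 were not called. Of 13 immune, endothelial, epithelial and erythroid markers, 2 were in the table (CD68 and VWF), with summed levels of 12.2 and 12.8 CPM in regular culture and 13.4 and 13.8 CPM in treated cells. SOX2, a neural stem cell factor, rose from 21.2 and 18.1 to 42.9 and 38.5 CPM and was low in passing, with 120 and 130 CPM in regular culture at 7 h. RBFOX3, a neuronal marker near 1 CPM, rose by 1.33.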

How the data were processed

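RNA from 8 libraries of LN229-TAZ(4SA) cells was sequenced after SMART-Seq and Nextera XT preparation, per the labels' protocols, which does not mark strand. The deposited values are log2 CPM per gene. Per the submitters' processing notes the authors used HISAT2, edgeR and GRCh38; the counting program, any removal of low genes, or a tool version is not given in the sources used here. From the deposited log2 values, the prior (0.0522 CPM) and whole reads were recovered: at a tolerance of 0.1 reads, 100% of values came out whole, and 3 reads correspond to 0.0663 to 0.0912 CPM in the 4 libraries compared. The column names give the group but no replicate.

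limma 3.58.1 in R 4.3.3, with an intensity trend, was fitted on the deposited log2 scale to all 8 libraries in 4 groups, for the 13028 of 13036 genes that reached 1 CPM in 2 or more libraries; p-values were adjusted by the Benjamini-Hochberg method over all of them and called under 0.05. The fit has 4 residual degrees of freedom and 14.5 prior ones. Changes are differences of log2(CPM + prior), which understates those of low genes. CPM was computed by removing the prior. Counting intervals are exact, at 95%, and cover counting error only. Ranks are of CPM per kilobase of the longest transcript. Symbols and positions were matched for 12970 IDs, and promoters were taken from RefSeq (GRCh38.p14). The calling procedure was tested on simulated data.

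The gene lists and the members described were chosen with earlier results of these data known. Named genes are 15 fixed ones, the 12 largest rises and falls of at least 5 CPM whose groups do not overlap, the 6 largest gains and losses of CPM, in each list up to 3 rises and 3 falls, members against the list and the most abundant member, and the 5 largest rises and falls near the regular 7 h level. A further 68 genes, among them BAG3, HSPH1, ATF3, ASNS, NQO1, F3, AXL, VCL, NEAT1 and the small RNA and mitochondrial tRNA genes, were named after their values were seen. Alternatives were other scalings, filters, a pseudocount, a test against 1.5-fold, no trend, voom, the 4 libraries alone and leaving out each library. One gene that the naming rule picks is not reported here.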

Additional observations from a re-analysis of the deposited data

How the results depend on the processing

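No paired analysis was possible because the columns carry no replicate number. With 2 libraries a group, the fit has few residual degrees of freedom and single calls near the threshold are weak. Leaving out each library in turn gave 3659 to 4285 called genes, 1600 to 1885 called higher, 2059 to 2400 called lower, 143 to 160 at least 2-fold higher and 259 to 287 at least 2-fold lower; the lone library was then assumed to vary like the other groups. A limma test against 1.5-fold called 463 genes. Scaling to the total called 3937 genes higher, against 2303; the cause was not tested. When 5 CPM was required in 2 libraries, fewer genes were tested, and 95 were at least 2-fold higher, 12 of them ZNF genes; a pseudocount of 0.5 CPM, which shrinks low genes, also left 12 ZNF genes at 2-fold. Of 424 named genes, 413 kept direction and call with voom weights, 386 with quantile normalization, 376 when scaled to the total and 362 to 385 when 1 library was left out. Reversed signs arose under quantile normalization for PSMD6 (0.0084), COX1 (0.60), BUB3 (0.022) and VIM (0.11); the cause was not tested. In the 250 bases before the start alone, a shorter window, the shares of promoters over all genes tested were 8.66% for the heat shock element, 12.1% for the antioxidant response element, 1.41% for the amino acid response element, 2.97% for the cAMP response element, 3.82% for the AP-1 site, 9.29% for the TEAD site and 11.5% for the NF-kB site. Genes under about 1 CPM rest on few reads and their folds carry wide counting error.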
